A study of Mus musculus with 24 samples.

Results

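The collagen genes were followed across developing and adult mouse lacrimal glands (LGs) and LG stem cell (LGSC) spheres. They were chosen by name: all genes whose GENCODE mouse symbol reads Col, a number, a, and a number. The rule found 44 genes among the 63862 features listed in 20 libraries. It reads names only, but members and lists were chosen with earlier results of these data known. They were split by type into 8 fibrillar, 7 cartilage-type, 8 basement membrane, 2 epithelial anchoring, 6 type VI, 6 fibril-associated and 7 other genes.

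All mice were C57BL/6. LGs came from adults, whose age the labels do not give, and from embryos at E17.5 and E19.5, with n = 3 libraries each. LGSC spheres were grown from LGs of 6 to 8 week old mice in Matrigel, a mouse basement membrane extract, with serum-free medium holding EGF, FGF10, Wnt3A and Y-27632, a ROCK inhibitor. Passage 2 spheres were collected on culture day 5 (n = 2) and on days 7, 10 and 14 (n = 3 each), and 1 passage 10 library entered no test. Nothing in the labels says whether replicates came from separate animals or cultures, so p-values measure only the spread between these libraries.

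Collagens are built from 3 chains wound into a triple helix. Fibrillar collagens form the fibres of connective tissue, where they are made mainly by fibroblasts, while type IV chains form the sheet of the basement membrane under epithelia and around vessels. Types II, IX, X and XI are best known from cartilage, and type II is also made in the developing eye.

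The tables hold FPKM, a level per gene length that is set against the depth of its library, and reads recovered from their steps came to between 6434281 and 9257025 per library. Many abundant transcripts were listed near 0. Gapdh and the epithelial gene Epcam were listed at 0 in all 20 libraries, although the passage 10 library, made against another gene list, gave Epcam 261 FPKM. Of 5327 genes with at least 10 FPKM at passage 10, 50.5% were listed at under 0.1 times that level on day 7 of passage 2, and the cause was not tested. Sums, shares and ratios across genes below therefore describe the listed values and not the order of true levels, and a gene listed at 0 is not called absent. The adult LG libraries also differed among themselves. The recovered reads were 2.67 and 2.57 times the scale of the deposited values in replicates 1 and 2, against 1.10 in replicate 3.

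Upstream sequences of RefSeq (GRCm38.p6) were matched for 35 of the 44 genes. The 120 bases before the start are shown for 6 genes that mark the contrasts described below: 2 fibrillar and 2 cartilage-type genes high in embryonic LGs, and the type VIII pair, which had opposite patterns. Some genes had more than 1 start, which gave 38 collagen starts. For Col9a1 the start at 24177610 is shown, and its other start at 24195203 had CCAAT 18 bases before it. Capitals mark 3 motifs searched on both strands, and neighbouring matches may overlap. The first is CCAAT, which reads ATTGG on the other strand. The next is TATAAA, which reads TTTATA there. The last is GGGCGG, which reads CCGCCC there.
Col3a1 (chr1:45311418-45311537, plus strand): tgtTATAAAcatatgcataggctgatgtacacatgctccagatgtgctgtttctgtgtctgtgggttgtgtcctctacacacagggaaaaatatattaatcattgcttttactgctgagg
Col5a1 (chr2:27886305-27886424, plus strand): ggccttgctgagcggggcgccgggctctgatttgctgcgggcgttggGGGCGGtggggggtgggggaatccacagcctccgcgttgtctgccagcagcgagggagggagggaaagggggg
Col9a1 (chr1:24177490-24177609, plus strand): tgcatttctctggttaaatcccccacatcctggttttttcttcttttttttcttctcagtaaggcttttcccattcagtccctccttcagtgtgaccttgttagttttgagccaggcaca
Col11a1 (chr3:114030420-114030539, plus strand): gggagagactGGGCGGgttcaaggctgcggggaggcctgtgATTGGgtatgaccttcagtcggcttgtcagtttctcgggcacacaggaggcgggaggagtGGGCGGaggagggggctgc
Col8a1 (chr16:57754738-57754857, minus strand): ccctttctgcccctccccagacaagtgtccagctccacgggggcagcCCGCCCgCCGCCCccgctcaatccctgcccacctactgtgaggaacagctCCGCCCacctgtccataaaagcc
Col8a2 (chr4:126286674-126286793, plus strand): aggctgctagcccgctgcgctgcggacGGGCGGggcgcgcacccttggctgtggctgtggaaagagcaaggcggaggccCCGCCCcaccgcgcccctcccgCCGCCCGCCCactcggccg
Within 250 bases before the start, GGGCGG was found at 22 of 38 collagen starts (57.9%), against 32.7% of all 32851 starts in the table. CCAAT was found at 34.2% of collagen starts against 33.8% of all, and TATAAA at 13.2% against 12.4%. These matches are letters in a window, not binding sites. In GENCODE M21 (GRCm38) Col4a1 and Col4a2 lie head to head on chromosome 8, and their RefSeq starts at 11312826 and 11312805 are 21 bases apart.

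**Figure D1:**
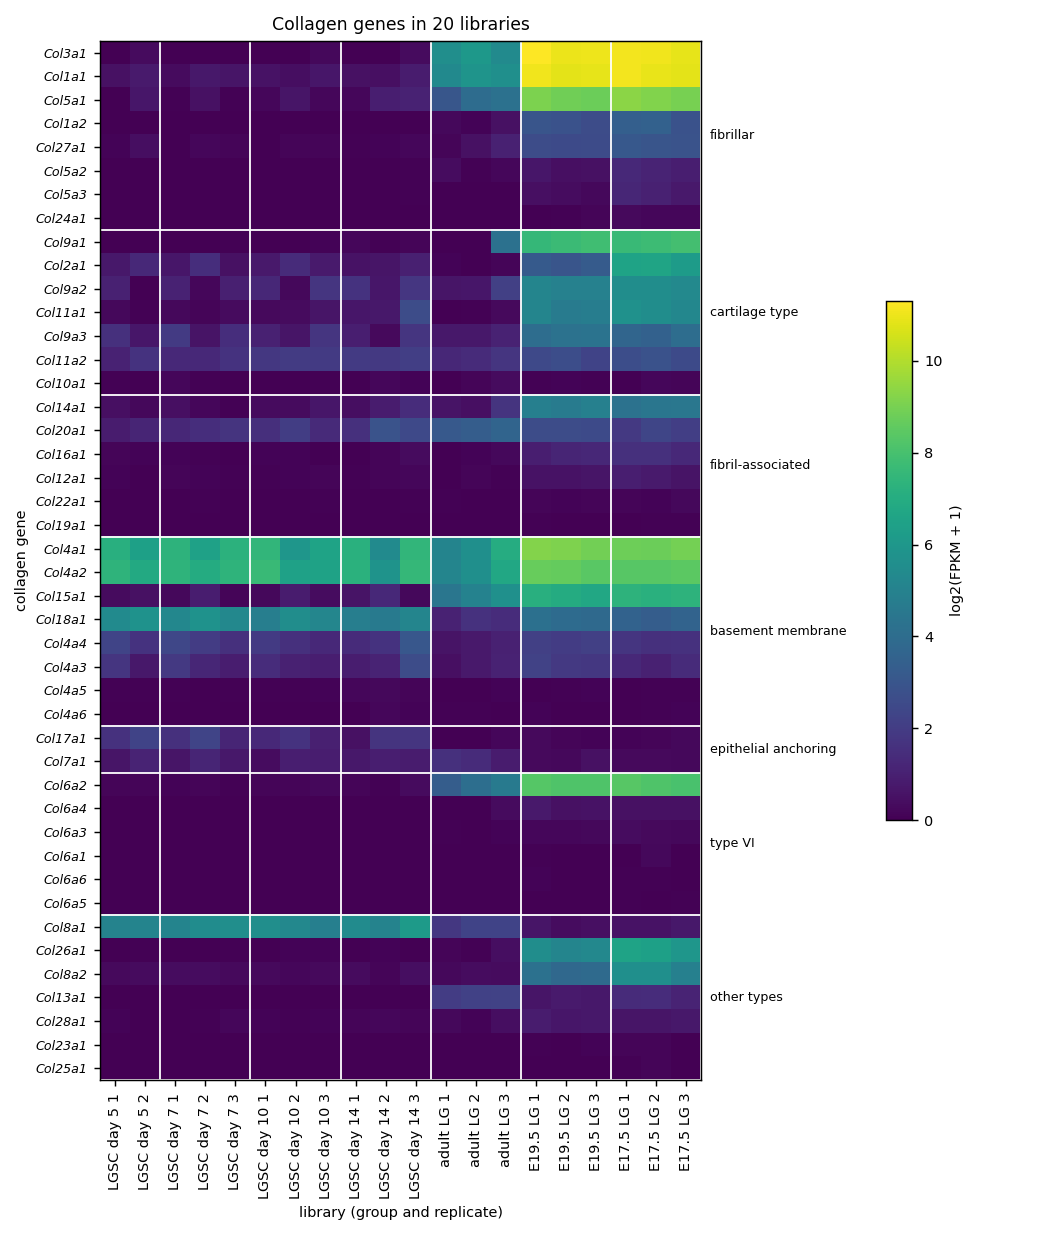
Each row is 1 of the 44 collagen genes, grouped by type, and each column 1 of 20 libraries. Colour is log2(FPKM + 1). Col1a1, Col3a1, Col5a1, Col6a2 and Col9a1 are bright in the 6 embryonic columns, while Col4a1 and Col4a2 are bright in every column and Col8a1 and Col18a1 are brightest in LGSC spheres.

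Embryonic LGs held far more listed collagen RNA than adult LGs. The summed FPKM of the 44 genes was 6521 ± 452 at E17.5 and 6406 ± 575 at E19.5, against 329 ± 129 in adult LGs and 384 ± 50.5 in day 7 LGSC spheres (SD, n = 3 each). At E17.5, 22 of the 27 genes tested were higher than in adult LGs and 4 were lower (limma, adjusted p under 0.05). Over all 18578 genes tested, 54.0% were called, 29.1% higher and 24.9% lower. Only genes averaging 0.5 FPKM or more over the libraries fitted were tested. Genes near 0 in adult LGs, such as Col2a1 and Col26a1, passed that filter only through the embryonic libraries, so their direction was largely set beforehand. The background genes were filtered in the same way. The median log2 fold change was 2.91 over the collagen genes tested and 0.05 over all genes. In these bulk tissues, fewer cells of a type and less RNA per cell cannot be told apart.

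Fibrillar genes took 71.9% ± 1.54 (SD, n = 3) of the listed collagen FPKM at E17.5. Col1a1, the alpha 1 chain of type I collagen, was listed at 2228, 1939 and 1867 FPKM at E17.5, at 2118, 1844 and 1927 at E19.5, and at 40.3, 57.1 and 47.9 in adult LGs. Col3a1, the chain of type III collagen, was listed at 2239, 2116 and 1905 FPKM at E17.5, 2542, 1996 and 2059.8 at E19.5, and 46.5, 65.3 and 41.6 in adult LGs. No embryonic library overlapped an adult one for either gene. Col1a1 was 41.5-fold higher at E17.5 than in adult LGs (log2 fold change 5.36 ± 0.17 SE, adjusted p = 1.80e-07) and Col3a1 40.8-fold higher (5.35 ± 0.20, adjusted p = 3.79e-07). Col5a1, a chain of type V collagen, which sits inside type I fibrils, was listed at 651, 573 and 509 FPKM at E17.5, 533, 458 and 433 at E19.5, and 7.13, 15.1 and 17.4 in adult LGs. That is a 43.7-fold difference at E17.5 (log2 fold change 5.42 ± 0.29, adjusted p = 2.30e-06). In all, 6 of 6 fibrillar genes tested were higher at E17.5 and 5 of 6 at E19.5, where Col5a2 gave 0.35 ± 0.15 with an adjusted p of 0.0818 and was called with a pseudocount of 0.1 (1.26, adjusted p = 0.0461). All 8 fibrillar genes were higher in every embryonic library than in every adult library. Of the 27 collagen genes tested, 22 stood wholly above and 4 wholly below the adult libraries for E17.5, and 23 and 4 for E19.5 (32 and 4 of all 44 at each stage). The background was 32.3% above and 27.2% below among all genes tested for E17.5, and 33.0% above and 25.8% below for E19.5.

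The listed values of some partner chains lay far apart. Col1a2 joins Col1a1 in type I collagen, yet the ratio of Col1a1 to Col1a2 was 188 to 296 at E17.5. Col6a2 was listed at 327, 291 and 270 FPKM at E17.5, and its type VI partner Col6a3 at 0.301, 0.234 and 0.198. These partner genes were singled out after their values were seen. Both members of each pair nevertheless stood higher at E17.5, with Col1a2 at 2.99 ± 0.21 on the log2 scale (adjusted p = 9.05e-06), while Col6a3 was too low to be tested. Col6a2 itself was at 317, 288 and 288 FPKM at E19.5 and 9.16, 16.0 and 23.8 in adult LGs (4.19 ± 0.29 at E17.5, adjusted p = 8.48e-06).

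Cartilage-type genes were high in embryonic LGs, and Col2a1 alone among them was called lower at E19.5 than at E17.5. Col2a1, the chain of type II collagen, was listed at 94.1, 97.9 and 72.7 FPKM at E17.5 and at 8.27, 6.84 and 8.41 at E19.5. In adult LGs it was listed at 0.0691, 0 and 0.109. Between the embryonic stages it fell by 3.33 on the log2 scale (SE 0.16, adjusted p = 0.000197), and the 2 groups did not overlap. Against adult LGs its log2 fold change was 6.39 ± 0.16 in the earlier stage (adjusted p = 6.91e-08) and 3.06 ± 0.16 in the later one.

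Col9a1, a chain of type IX collagen, which coats type II fibrils, was listed at 202, 214 and 245 FPKM at E17.5 and 185, 211 and 229 at E19.5. The adult libraries were listed at 0, 0 and 17.8, so replicate 3 stood apart from the other two. Its partner Col9a2 was listed at 45.6, 45.2 and 38.6 at E17.5, 34.7, 30.7 and 30.5 at E19.5, and 0.536, 0.611 and 3.39 in adult LGs. Col9a3 was listed at 11.8, 10.4 and 15.4 at E17.5, 15.5, 18.3 and 18.6 at E19.5, and 0.646, 0.655 and 1.09 in adult LGs. All 3 type IX genes were called higher in E17.5 than in adult LGs by limma, with adjusted p of 0.000718, 2.54e-05 and 4.84e-06. The log2 fold changes were 6.37 ± 0.98, 4.31 ± 0.36 and 2.91 ± 0.18. None of the 3 passed the test between E17.5 and E19.5 (log2 fold changes -0.08 ± 0.98, -0.42 ± 0.36 and 0.46 ± 0.18), although Col9a2 was called without adult LG replicate 3 (adjusted p = 0.0395). These SEs come from the fit of all LG stages, so that of Col9a1 also holds the spread of its adult libraries.

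Col11a1, which nucleates cartilage fibrils and is also made outside cartilage, was listed at 51.5, 45.7 and 37.2 FPKM at E17.5 and 34.2, 25.2 and 26.7 at E19.5. It was listed at 0, 0.0495 and 0.226 in adult LGs. Its E19.5 to E17.5 difference of -0.62 ± 0.18 did not pass the test (adjusted p = 0.136), although the groups did not overlap, and it was called without adult LG replicate 3 (adjusted p = 0.0472). Col11a2 was listed at 5.29, 6.30 and 4.74 at E17.5, 4.67, 5.29 and 3.82 at E19.5, and 1.40, 1.66 and 2.32 in adult LGs. Col10a1, the type X chain of hypertrophic cartilage, did not exceed 0.251 FPKM in any of the 20 libraries and was not tested.

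**Figure D2:**
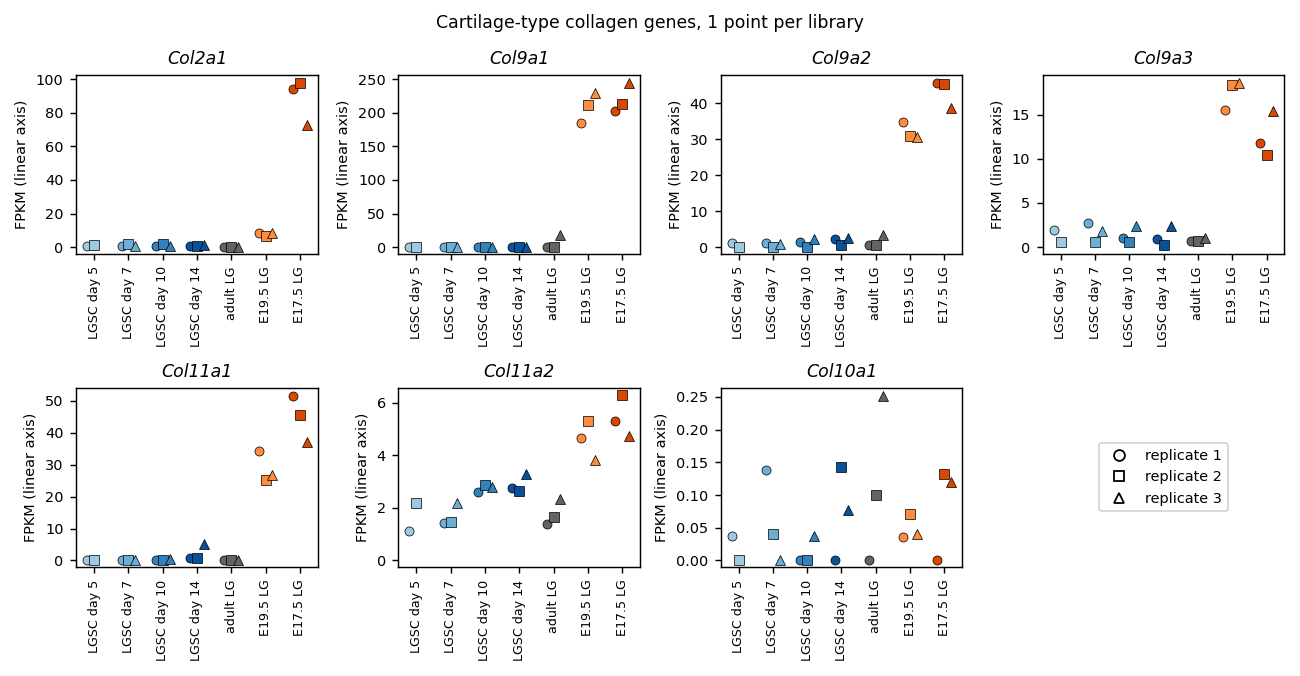
Each panel is 1 cartilage-type gene, with FPKM on a linear axis against group and 1 point per library, shaped by replicate number. Col2a1 lies between 72.7 and 97.9 at E17.5 and between 6.84 and 8.41 at E19.5, while Col9a1 stays high at both stages and reaches 17.8 in adult LG replicate 3 only.

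Other markers of cartilage did not all stand high beside these genes. Of 15 such markers, 5 were tested at E17.5 against adult LGs, where 3 were higher and 1 lower (background 29.1% higher and 24.9% lower). Their summed FPKM was 26.5 to 31.9 at E17.5, 66.0 to 84.5 at E19.5 and 7.95 to 33.3 in adult LGs. Of the defining genes, Sox9 was listed at 0 in all 20 libraries. The passage 10 library listed Sox9 at 51.8 FPKM, so that 0 is not read as absence. The aggrecan gene Acan did not exceed 0.396 FPKM in embryonic LGs. Hapln1 was listed at 7.86, 6.77 and 4.81 FPKM at E17.5, 5.60, 3.88 and 4.10 at E19.5, and 0 in each adult library. Sox6 was listed at 1.59, 1.86 and 1.66 at E17.5 and 0.640, 0.592 and 0.559 at E19.5, with at most 0.283 in adult LGs. Chad stood the other way, at 2.14, 2.10 and 2.31 at E17.5 against 5.92, 8.45 and 13.3 in adult LGs. Hapln1, Sox6 and Chad were named after their values were seen. Ucma, of cartilage matrix, made up most of the E19.5 sum at 43.2, 53.0 and 66.6 FPKM. Whether cartilage cells took part in the Col2a1 and Col9a1 values was not tested.

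Of the 8 basement membrane genes, Col4a1, Col4a2 and Col18a1 were listed above 1 FPKM in each of the 20 libraries. Col4a1 was listed at 453, 438 and 486 FPKM at E17.5, 584, 553 and 472 at E19.5, and 32.9, 47.9 and 126 in adult LGs. Its partner Col4a2 was listed at 336, 329 and 351 at E17.5, 416, 398 and 345 at E19.5, and 34.3, 48.4 and 108 in adult LGs. Adult replicate 3 was the highest adult library for both chains. Both were higher at E17.5 than in adult LGs, by 2.95 ± 0.41 (adjusted p = 0.000427) and 2.56 ± 0.35 (adjusted p = 0.000395) on the log2 scale. The Col4a1 to Col4a2 ratio was 1.33 to 1.41 across the 6 embryonic libraries, 0.960 to 1.17 in adult LGs and 0.682 to 1.05 across the 11 LGSC libraries.

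Col15a1 and Col18a1 encode the multiplexins, basement membrane collagens whose ends can be cleaved off. Col15a1 was listed at 156, 145 and 158 FPKM at E17.5, 140, 125 and 110 at E19.5, and 20.6, 31.0 and 49.5 in adult LGs. Col18a1 was listed at 10.9, 9.22 and 11.2 at E17.5, 17.1, 14.6 and 13.6 at E19.5, and 1.12, 2.07 and 1.70 in adult LGs. Both were higher at E17.5 than in adult LGs, by 2.24 ± 0.28 (adjusted p = 0.000214) and 2.13 ± 0.17 (adjusted p = 2.16e-05) on the log2 scale. Of the kidney-type chains, Col4a4 was higher at E17.5 (0.83 ± 0.15, adjusted p = 0.00161), a call lost with all 20 libraries in one fit (adjusted p = 0.0511). Col4a3 was not called (0.48 ± 0.20, adjusted p = 0.0689) but was without adult LG replicate 3 (adjusted p = 0.0167), and Col4a5 and Col4a6 did not exceed 0.184 FPKM in any of the 20 libraries.

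Among the remaining types, Col26a1 and Col8a2 were high in embryonic LGs. Col26a1 was listed at 93.1, 84.6 and 60.7 FPKM at E17.5, 45.4, 34.2 and 37.7 at E19.5, and 0.101, 0.0386 and 0.337 in adult LGs. Col8a2, a short-chain network collagen known from the cornea, was listed at 49.2, 48.7 and 29.6 at E17.5, 17.6, 13.0 and 13.9 at E19.5, and 0.185, 0.281 and 0.263 in adult LGs. Col8a2 fell by 1.44 between the stages (SE 0.21, adjusted p = 0.0224). That call was lost with the replicate block (adjusted p = 0.0579) and without E17.5 replicate 1 or 2 or E19.5 replicate 2 or 3 (adjusted p = 0.115, 0.103, 0.0997 and 0.106 by limma). Col26a1 did not pass the threshold (-0.99 ± 0.20, adjusted p = 0.0516) and was called without adult LG replicate 3 (adjusted p = 0.0173) and without E17.5 replicate 3 (adjusted p = 0.0440). Col14a1, a fibril-associated collagen of loose connective tissue, was listed at 18.4, 21.1 and 21.7 at E17.5, 28.7, 25.0 and 29.3 at E19.5, and 0.532, 0.360 and 2.22 in adult LGs.

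The 4 genes lower at E17.5 than in adult LGs were Col7a1, Col8a1, Col13a1 and Col20a1, named after their values were seen. Col8a1 was listed at 0.478, 0.487 and 0.636 FPKM at E17.5, 0.560, 0.305 and 0.399 at E19.5, and 2.60, 3.83 and 3.85 in adult LGs, opposite to its partner Col8a2. Its log2 fold change was -1.52 ± 0.16 at E17.5 (adjusted p = 8.46e-05). The other 3 had log2 fold changes of -0.99, -0.81 and -1.26. The same 4 genes were lower at E19.5. When values were scaled to recovered reads, which moves the median of all genes by 0.59 at E17.5 and 0.52 at E19.5, 23 collagen genes were called higher at each stage and 1 and 2 lower, with Col8a1 among the lower at both. Col13a1 lost its call at E17.5 under that scaling (-0.13, adjusted p = 0.679), and Col20a1 lost its call at both stages (-0.41, adjusted p = 0.358, and -0.02, adjusted p = 0.967). Under that scaling 81.5% and 81.4% of all calls were higher, against 53.8% and 55.9% as deposited.

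**Figure D3:**
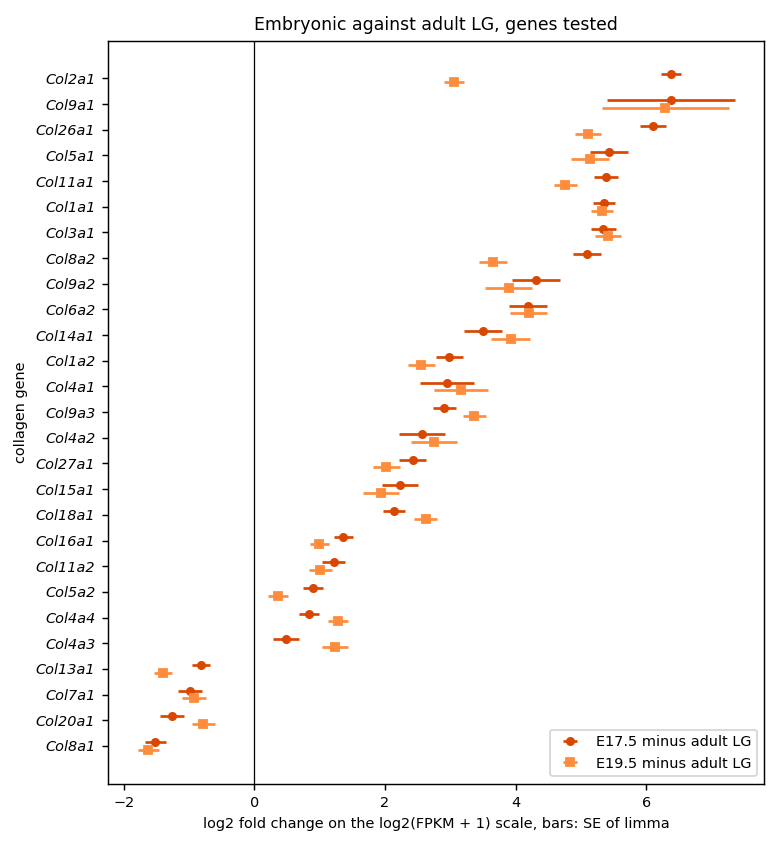
Each row is 1 of the 27 collagen genes tested, with its log2 fold change on the log2(FPKM + 1) scale for E17.5 (circles) and E19.5 (squares) against adult LGs and bars for the SE of limma. Col8a1, Col20a1, Col7a1 and Col13a1 lie left of 0 at both stages, and Col2a1 shows the widest gap between the stages.

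At E19.5, 22 of 27 genes tested were higher than in adult LGs and 4 lower (background 54.2%, of which 30.3% higher and 23.9% lower), with a median of 2.75 against 0.09 over all genes. Both embryonic comparisons share the adult libraries. Between E19.5 and E17.5, Col2a1 and Col8a2 were the only 2 of 27 genes called by limma, both lower, against a background of 1.74% (1.11% higher and 0.624% lower). At an unadjusted p under 0.05 there were 12 of 27, against 15.3% of all genes. By overlap alone, 6 of the 27 stood wholly higher and 10 wholly lower, against 19.8% and 15.3%. Of all calls, 64.1% were higher as deposited, 51.4% when scaled by the median of ratios and 49.5% when scaled to recovered reads, with 3 and 2 collagen genes lower and 0 higher under those scalings. Without adult LG replicate 3, which entered the estimate of spread, 9 collagen genes were called. Why the count moved was not tested. For that run and the scalings above, the share of all genes called is not given here.

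The genes that process collagen chains differed in both directions between E17.5 and adult LGs, against the same background of 29.1% higher and 24.9% lower. Of 11 chain modification genes tested (15 listed), 8 were higher and 0 lower by limma. On the log2(FPKM + 1) scale the prolyl hydroxylases P3h1 (17.6-fold in mean FPKM) and P3h3 (8.21-fold) had the largest differences. In fold of mean FPKM P4ha3, named after its values were seen, stood higher at 195-fold over adult values of 0, 0.101 and 0. Of 7 chaperone and export genes tested (10 listed), 2 were higher and 3 lower, with Fkbp10 (4.12 ± 0.22) and Sec23a (2.82 ± 0.16) the largest on the log2 scale. Of 5 propeptide cleavage genes tested (8 listed), 3 were higher and 2 lower, with Adamts3 (2.32) and Adamts2 (2.31) the largest. Of 3 crosslinking genes tested (6 listed), 2 were higher, Loxl1 (3.22 ± 0.25) and Loxl3 (1.06 ± 0.25), and none lower. Of 9 fibril proteoglycan genes tested (10 listed), 5 were higher and 1 lower, with Aspn (34.4-fold in mean FPKM) and Lum (15.7-fold) the largest on the log2 scale. Kera, named after its values were seen, was listed at 11.9, 13.1 and 14.6 FPKM at E17.5 and at 0 in all 3 adult libraries. Of 4 receptor genes tested (10 listed), 1 was higher, Itga11 (1.36 ± 0.28), and 3 were lower, among them Lair1 (-1.36 ± 0.28). Of 2 basement membrane partner genes tested (5 listed), 0 were called by limma.

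Fibroblast markers stood high in the same libraries. The summed FPKM of 10 such genes was 360 to 501 at E17.5, 529 to 566 at E19.5, 40.2 to 81.4 in adult LGs and 0.234 to 1.04 in day 7 LGSC spheres. Dpt, a matrix gene of fibroblasts, was listed at 135, 184 and 159 FPKM at E17.5 and at 20.7, 40.2 and 34.8 in adult LGs, while Pdgfrb did not exceed 0.0626 FPKM at either embryonic stage. Of these 10, 7 were tested at E17.5 against adult LGs and 5 were higher (background 29.1%). On day 7 against adult LGs, 3 were tested and all were lower (background 21.1%). With so little listed on day 7, these genes passed the filter largely through adult LGs, so their direction was largely set beforehand. Endothelial markers (6 genes) summed to 122 to 149 FPKM at E17.5, 45.1 to 133 in adult LGs and 0.0229 to 0.201 on day 7. Skeletal muscle markers (8 genes) summed to 10.9 to 33.8 at E17.5, 5.28 to 7.34 at E19.5 and 0.503 to 2.74 in adult LGs, and adipocyte markers (6 genes) to 80.4 to 84.0, 123 to 154 and 10.9 to 42.2. The part of these cells in the collagen differences was not tested.

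In every LGSC library, Col1a1, Col1a2, Col3a1, Col5a1, Col6a2, Col13a1 and Col15a1 were listed lower than in every tissue library. Col1a1 was listed at 0.263 to 0.825 FPKM over the 11 LGSC libraries. Col3a1 was listed at 0 in 8 of them and did not exceed 0.245 in the others. Col5a1 ranged from 0.0139 to 1.13, Col6a2 from 0.0536 to 0.260 and Col15a1 from 0.123 to 1.43. 7 of the 44 genes were listed at 0 in every LGSC library, Col13a1 among them, which was listed at 2.97, 3.56 and 3.64 in adult LGs. The shares of all genes at 0 in every LGSC library, or below every tissue library, were not computed. These counts therefore describe listed values and do not set collagen genes apart from other genes.

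4 genes were listed high in culture. Col4a1 was listed at 159, 87.3 and 153 FPKM on day 7 and over the 11 libraries at 42.0 to 172. Col4a2 was listed at 164, 123 and 165 on day 7, with a range of 56.0 to 200. Col18a1 was listed at 36.1, 53.2 and 37.7 on day 7, with a range of 23.9 to 54.1, above all 9 tissue libraries. Col8a1 was listed at 33.0, 44.4 and 46.9 on day 7, with a range of 28.7 to 70.2, also above all 9 tissue libraries.

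On day 7, 5 of 21 collagen genes tested were higher in LGSC spheres than in adult LGs and 7 were lower, against a background of 35.2% called, 14.2% higher and 21.1% lower. The median log2 fold change was -0.39 over the collagen genes tested, against -0.08 over all genes. By overlap, 6 of the 21 stood wholly above and 7 wholly below the adult libraries (background 22.9% and 29.5%). The higher genes were Col18a1 (4.04 ± 0.25, 26.0-fold, adjusted p = 0.000199), Col8a1 (3.26 ± 0.24, 12.1-fold, adjusted p = 0.000357), Col17a1 (1.63 ± 0.32), Col4a4 (1.19 ± 0.27) and Col4a2 (1.39 ± 0.43, adjusted p = 0.0455). The call for Col4a4 was lost without day 7 replicate 1 (adjusted p = 0.0509) and without adult LG replicate 2 (adjusted p = 0.0538). With adult LG replicate 3 alone as the adult group, a setting chosen after seeing the data, Col17a1, Col4a4 and Col4a2 all lost their calls (adjusted p = 0.175, 0.204 and 0.266 by limma). The call for Col4a2 was also lost with the replicate block (adjusted p = 0.0519) and when any one library other than adult LG replicate 3 was left out. Col4a1 was not called (1.12 ± 0.52, adjusted p = 0.14), but it was called without adult LG replicate 3 (1.67, adjusted p = 0.0118). The lower genes were Col1a1, Col3a1, Col5a1, Col6a2, Col13a1, Col15a1 and Col20a1, with Col3a1 at -5.68 ± 0.23 and Col1a1 at -5.05 ± 0.22. Genes near 0 in 1 of these groups, such as Col3a1 on day 7 and Col17a1 in adult LGs, passed the filter only through the other. Col20a1 lost its call when scaled to recovered reads (-0.99, adjusted p = 0.1). Scaled to recovered reads, 6 genes were higher and 6 lower, and the share of all calls that were higher went from 40.2% to 75.8% as the median of all genes moved by 0.68.

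Against E17.5 LGs, 23 of 29 collagen genes tested were lower in day 7 LGSC spheres and 4 were higher (background 47.6% called, 29.6% lower and 18.1% higher), with a median of -2.40 against -0.10. Genes under 0.5 FPKM on average on day 7, such as Col3a1 and Col9a1, passed the filter only through E17.5 and could only come out lower. The background genes were filtered in the same way. By overlap, 4 of the 29 stood wholly above and 23 wholly below (background 24.2% and 35.4%). The 4 higher genes were Col8a1 (4.78 ± 0.16), Col18a1 (1.90 ± 0.17), Col17a1 (1.53 ± 0.29) and Col7a1 (0.56 ± 0.16, adjusted p = 0.0312). The Col7a1 call was lost with the replicate block (adjusted p = 0.0573) and when any 1 E17.5 library was left out. Col17a1 and Col7a1, which take part in anchoring epithelia to the tissue below, were listed at 1.97, 4.06 and 1.26 FPKM and at 0.556, 1.24 and 0.662 on day 7. Col4a1 and Col4a2 were lower than at E17.5, by -1.83 ± 0.23 and -1.18 ± 0.13.

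On day 7, 6 of the 7 cartilage-type genes were listed below every E17.5 library, against 35.4% of all genes tested. At that time Col2a1 was listed at 0.630, 1.79 and 0.409 FPKM, Col9a2 at 1.12, 0.165 and 0.974, and Col11a2 at 1.44, 1.44 and 2.19. None of the 5 cartilage-type genes tested was called against adult LGs (background 35.2% called), while all 6 tested were lower than at E17.5 (background 29.6% lower). Among those 6, genes near 0 on day 7, such as Col9a1 and Col11a1, passed the filter only through E17.5 and could only come out lower. Col2a1 stood higher than in adult LGs without passing the test (0.81 ± 0.28, adjusted p = 0.0674). It was called higher in 5 of 12 alternatives, among them a pseudocount of 0.1 (2.54, adjusted p = 0.0362), all 20 libraries in one fit (0.81, adjusted p = 0.0120), recovered-read scaling (0.90, adjusted p = 0.0375) and limma-voom (3.68, adjusted p = 0.0230). Col9a1 was called lower when the replicate block was added to limma-voom (-6.07, adjusted p = 0.0290). Of the process genes (background 14.2% higher and 21.1% lower), 3 of 10 tested for chain modification were higher than in adult LGs, among them P3h1 (1.31 ± 0.36) and Plod2 (1.17 ± 0.25). All 8 fibril proteoglycan genes tested were lower, among them Dcn and Lum, which were both listed at 0 on day 7. Process genes near 0 in 1 group, such as Dcn and Lum on day 7 and Plod2 in adult LGs, passed the filter only through the other. Their direction was therefore set beforehand. Of 8 chaperone and export genes tested, 1 was higher and 3 lower, with Creb3l1 (-5.21 ± 0.52) and Mia3 (-1.92 ± 0.43) the largest on the log2 scale. Adamts2 (-2.69 ± 0.23) and Pcolce (-2.32 ± 0.41) were the 2 lower of 4 cleavage genes tested. Loxl1 (-2.12 ± 0.33) and Loxl3 (-0.92 ± 0.29) were the 2 lower of 4 crosslinking genes tested. Of 4 receptor genes tested 3 were lower, among them Itga1 (-2.47 ± 0.19) and Lair1 (-1.42 ± 0.33).

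The make-up of collagen FPKM differed accordingly. Basement membrane genes took 85.9% ± 3.43 of collagen FPKM in day 7 LGSC spheres, 48.7% ± 10.9 in adult LGs, 14.9% ± 1.49 at E17.5 and 16.7% ± 1.25 at E19.5 (SD, n = 3). Fibrillar genes took 0.207% ± 0.147, 37.5% ± 12.4, 71.9% ± 1.54 and 72.5% ± 1.39. The cartilage-type share was 6.38% ± 0.465 in E17.5 LGs and 4.71% ± 0.639 in E19.5 LGs. The groups did not overlap for the fibrillar and basement membrane shares of day 7 spheres, adult and E17.5 LGs, where the two-sided exact permutation test gave p = 0.1, the smallest that 3 against 3 can give (0.136 adjusted over 42 comparisons).

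**Figure D4:**
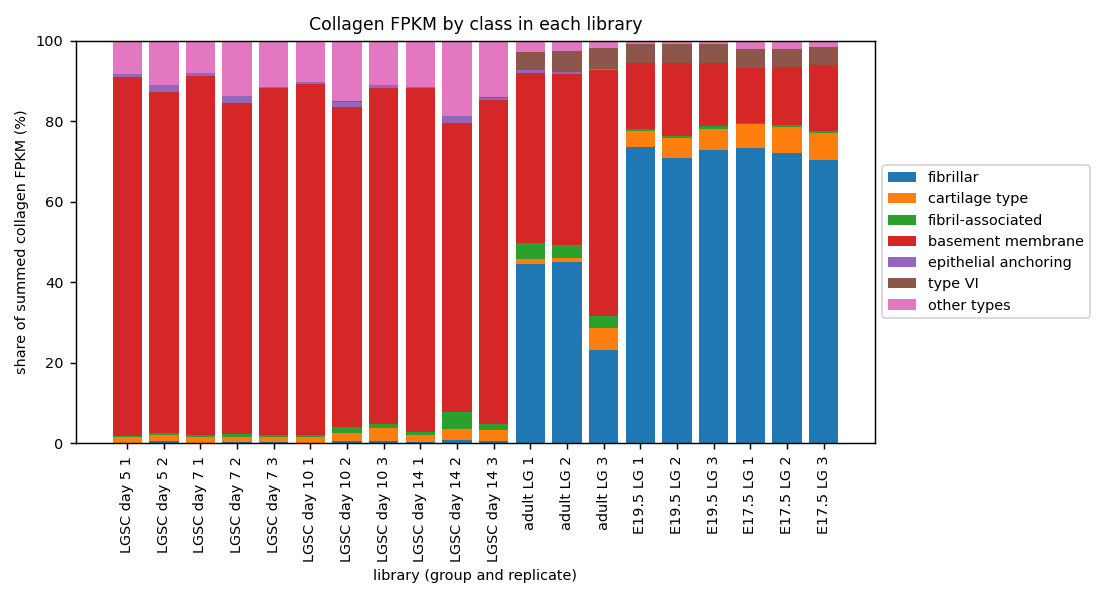
Each bar is 1 of 20 libraries and stacks the share of summed collagen FPKM (%) taken by each type. Basement membrane genes fill most of each LGSC bar and fibrillar genes most of each embryonic bar, while adult LG replicate 3 has a smaller fibrillar share (23.2%) than the other adult libraries.

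Within the culture, no collagen gene was called between day 7 and day 14 by limma (0 of 17 tested, background 0%). That fit did not use the replicate numbers, which pair the LGSC libraries, and it called no gene at all. It therefore cannot show that collagen genes stayed unchanged. At an unadjusted p under 0.05 there were 2 collagen genes, against 9.89% of all genes, and limma-voom with the replicate block called 1, Col11a1. By overlap, 2 of the 17 stood wholly higher on day 14 and 1 wholly lower, against 8.26% and 9.12% of all genes tested. Over days 5 to 14, 0 of 15 genes tested had a slope by limma (background 2.14%). At an unadjusted p under 0.05 there were 4, against 19.0% of all genes. Of all calls, 30.2% were rising as deposited, 42.6% when scaled by the median of ratios and 41.8% when scaled to recovered reads, with 0 collagen genes called under any of these. With the replicate number as a block, Col9a2 (0.08 per day on the log2 scale, adjusted p = 0.0379) and Col20a1 (0.13 per day, adjusted p = 0.0285) were called as rising. Limma-voom on recovered reads with that block called 5, with Col11a1, Col11a2, Col9a2 and Col20a1 rising and Col18a1 falling. The shares of all genes called in the runs with the block are not given here, so these counts do not set collagen genes apart. Col11a1 was listed at 0.608, 0.644 and 5.23 FPKM on day 14, above every earlier LGSC library, of which the highest was at 0.581. Most of that height lay in replicate 3. Replicate 2 was the lowest library on all 4 days for 4 of the 15 genes averaging 0.5 FPKM or more in LGSC spheres, Col4a1, Col4a2, Col9a2 and Col9a3, and the highest on all 4 days for Col7a1.

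**Figure D5:**
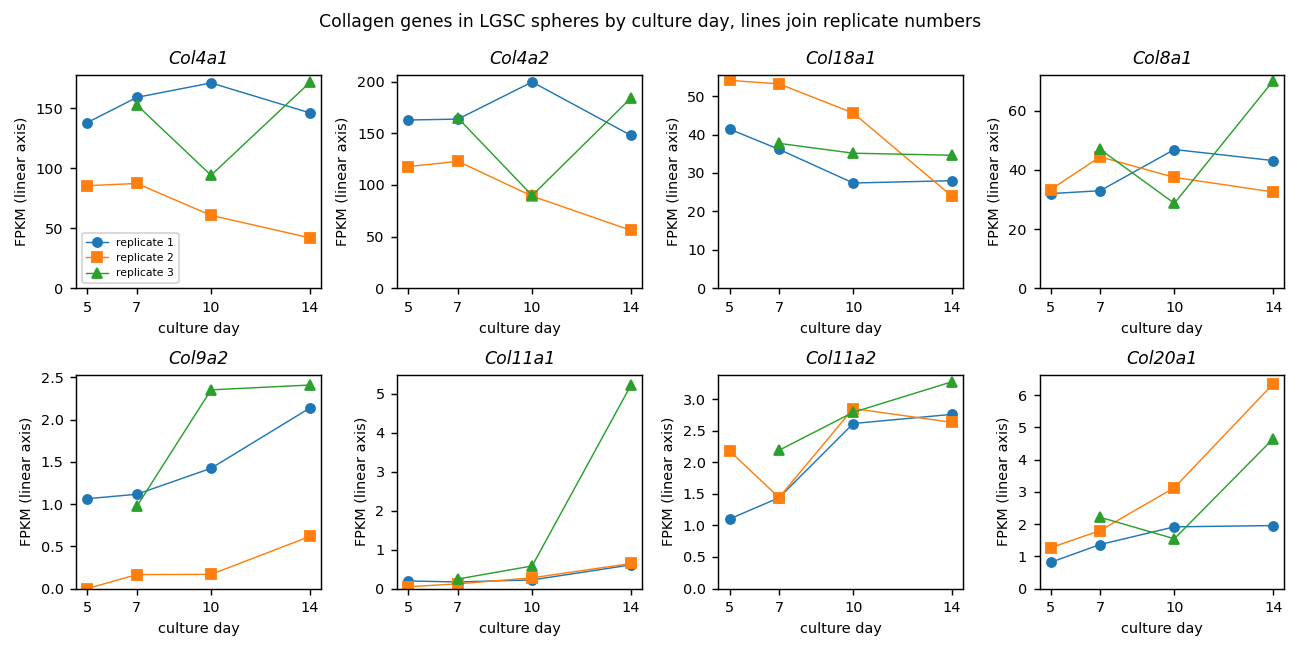
FPKM on linear axes against culture day (5, 7, 10, 14) for 8 collagen genes in LGSC spheres, with 1 point per library and lines joining equal replicate numbers. Replicate 2 lies lowest for Col4a1 and Col4a2 on every day, and Col11a1 stands out at 5.23 in day 14 replicate 3.

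Of the 44 genes, 15 had all group means under 1 FPKM, and the highest value among them in the 20 libraries compared was 0.937, for Col12a1. Such listings do not show that a gene is low, since Col4a5, 1 of these 15, was listed at 27.3 FPKM in the passage 10 library. The highest group mean was 1 FPKM or more for each of the others and 10 or more for 17 of them.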

How the data were processed

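Messenger RNA was sequenced from LGs and LGSC spheres. Of 24 samples listed, 20 were compared, 1 (passage 10) was given by value and 3 were not used here. The submitters' processing notes name CASAVA 1.8, HISAT2 2.0.5, featureCounts 1.5.0-p3 and NCBIM37. The authors deposited 1 table per library, read here as FPKM from its steps and gene lengths. The step from counts to FPKM is not given in the sources used here. Dividing by those steps gave whole reads (within 0.01, up to 1000 reads) for 92.6% to 93.6% of genes, but not for Col2a1, Col8a1, Col11a2, Col17a1 and Col20a1. Symbols and positions came from GENCODE M21 (GRCm38), and upstream sequences from RefSeq (GRCm38.p6).

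limma 3.58.1 (R 4.3.3) was run on log2(FPKM + 1), which understates changes of low genes, over genes averaging 0.5 FPKM or more across the libraries fitted, with Benjamini-Hochberg adjustment over all of them and a threshold of 0.05. LG stages were fitted together, and LGSC comparisons on their own groups. A gene near 0 in 1 group passed the filter only through the others, which fixed its direction in fits of 2 groups. Code was tested on simulated data. Shares were compared by exact permutation with scipy 1.17.1. Deviations of equally numbered LGSC libraries correlated in every pair (0.26 to 0.72), so those numbers pair them. Values per library were given for genes whose group mean reached 10 FPKM and the cartilage types, and for each process list the 2 largest called changes. Members and lists were chosen with earlier results of these data known.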

Additional observations from a re-analysis of the deposited data

Results flagged for a closer look

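The passage 10 LGSC library, which entered no comparison, listed 7 collagen genes at 10 FPKM or more, and 3 of these 7 stood at more than 10 times their highest day 7 value at passage 2. Over all 5327 genes at 10 FPKM or more in that library, 50.5% were listed on day 7 at under 0.1 times their passage 10 value, so the collagen count is near the background. Col17a1 was listed at 435.5 FPKM, against at most 4.06 on day 7. Col7a1 was listed at 40.2 FPKM, against at most 1.24. Col4a5 was listed at 27.3 FPKM, against at most 0.0482. This library has no replicate and was made against another gene list, and passage and gene list cannot be told apart.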

How the results depend on the processing

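No named gene reversed a called direction under any alternative run. Of the collagen calls, 23 of 26 (E17.5 against adult LG), 25 of 26 (E19.5 against adult LG), 1 of 2 (E19.5 against E17.5 LG, Col2a1), 8 of 12 (day 7 against adult LG) and 25 of 27 (day 7 against E17.5 LG) held in every alternative in which the gene was tested. 3 alternatives were added after seeing the data: adult LG replicate 3 alone as the adult group, all 4 culture days with the replicate block, and a minimum of 10 recovered reads in every library. The last drops genes near 0 in 1 group, so fewer members are tested by construction: it called 14 of 14 collagen genes for E17.5 and 14 of 14 for E19.5 against adult LG, 1 between the embryonic stages, 1 slope, 6 of 9 for day 7 against adult LG and 11 of 13 against E17.5 LG. Between E19.5 and E17.5 the main count of 2 became 11 with 2 groups only, 4 with all 20 libraries in one fit, and 1 to 9 when 1 library was left out. The cause was not tested. The slope gave 1 call with all 20 libraries and 0 to 1 when 1 library was left out (1 without day 14 replicate 1). Shares of all genes called in the alternative runs are not given here, so counts under those runs do not set collagen genes apart.

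The replicate block, used with the pairing of LGSC libraries, gave 2 slope calls, and with limma-voom 5 slope calls and 1 for day 14 against day 7. In the LG stages, where equal numbers did not deviate together (mean correlation -0.01), it gave 1 call between E19.5 and E17.5. It left every other count of calls within 1.5 times.

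As shares of recovered reads, which weight long genes more than FPKM does, the basement membrane share was 13.1% and 14.8% (E17.5, E19.5), the cartilage-type share 5.27%, 3.35% and 1.17% (E17.5, E19.5, day 7), the fibrillar share 74.9% and 75.7% (E17.5, E19.5), the fibril-associated share 0.466%, 2.43% and 0.458% (E19.5, adult, day 7), the type VI share 4.77%, 4.89% and 5.51% (E17.5, E19.5, adult) and the share of other types 0.775% at E19.5.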
